A study of Rattus norvegicus with 300 samples.

Results

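The 9 tubulin genes described here are the beta-tubulins Tubb2a, Tubb2b, Tubb3, Tubb4a, Tubb4b and Tubb5 and the alpha-tubulins Tuba1a, Tuba1b and Tuba4a, 9 of the 17337 gene symbols in the deposited count table of rat brain RNA. They were chosen by symbol as one gene family. Tubb4a was selected on its measured level, its counts scaled to a library of 1000000 (CPM), which was higher with Probiotics than with Maltodextrin, and the question asked of the other 8 was whether they rose as well. The values of Tubb4a in Probiotics and in Maltodextrin are therefore given as a description with no test. The libraries came from male Long Evans rats aged 60 days that took their treatment in drinking water for 3 weeks. The groups were FT (13 mg/kg/day of the one drug in the protocol that no other group received, fluoxetine; the labels do not spell FT out), Bupropion (15 mg/kg/day), Desipramine (7.5 mg/kg/day), Probiotics, Maltodextrin (10 g/L) and Control (plain water). No strain list is used here for the Probiotics group and its dose is not printed, since the labels give it in forms that differ. Each of 10 brain regions (named as in the labels: PLC, ILC and CGC, then NACShell, BLA and mPOA, then dorDG, venDG, Raphe and LConly) was sampled in all 6 groups with 5 libraries each, 300 libraries in 60 groups. Each library was total RNA from pooled tissue punches of frozen sections. The labels do not say which rats entered a pool, so n counts libraries, and p-values measure only the spread between libraries, which may be technical.

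Alpha- and beta-tubulin form the dimer that polymerises into microtubules, the tracks and struts of axons, dendrites and glial processes. Mammals carry several genes for each, whose proteins are very alike in the body and differ mostly in the tail that faces outward from the microtubule. Tubb3 is used as a marker of neurons, Tubb2a and Tubb2b are abundant in neurons, Tubb4a is the beta-tubulin of myelinating oligodendrocytes as well as of neurons, and Tubb5 and Tubb4b are found in many tissues. Tuba1a is the main alpha-tubulin of the developing brain, Tuba1b is broadly expressed, and Tuba4a is a gene of mature neurons. These genes are close copies, so reads may be shared between Tuba1a, Tuba1b and Tuba1c, between Tubb2a and Tubb2b, and between Tubb4a, Tubb4b and Tubb5. No source used here says how the counting split such reads, and values of single members are uncertain to that extent. Levels are compared between treatments and regions within a gene, not between genes.

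The promoters of Tubb4a and of the alpha-tubulin pair whose changes are set against it are shown first, as the 250 bases before the annotated start in RefSeq build GRCr8. Each is written 5′ to 3′ in the direction of transcription. Capitals mark exact matches on either strand, spelled as they read on the printed strand, to the GC box (GGGCGG), the CCAAT box or the TATA box (TATAAA).

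Tubb4a (chr9:2012282-2012531, minus strand): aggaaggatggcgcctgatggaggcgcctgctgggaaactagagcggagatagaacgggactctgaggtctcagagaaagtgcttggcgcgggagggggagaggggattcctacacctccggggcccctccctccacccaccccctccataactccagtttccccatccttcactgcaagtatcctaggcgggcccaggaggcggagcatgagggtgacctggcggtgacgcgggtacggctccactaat
Tuba1a (chr7:131995820-131996069, minus strand): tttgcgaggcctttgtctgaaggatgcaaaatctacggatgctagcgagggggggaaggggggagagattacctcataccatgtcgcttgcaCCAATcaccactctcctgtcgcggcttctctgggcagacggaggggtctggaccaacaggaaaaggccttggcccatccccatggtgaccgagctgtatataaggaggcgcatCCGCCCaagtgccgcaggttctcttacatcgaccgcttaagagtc
Tuba1b (chr7:131972588-131972837, minus strand): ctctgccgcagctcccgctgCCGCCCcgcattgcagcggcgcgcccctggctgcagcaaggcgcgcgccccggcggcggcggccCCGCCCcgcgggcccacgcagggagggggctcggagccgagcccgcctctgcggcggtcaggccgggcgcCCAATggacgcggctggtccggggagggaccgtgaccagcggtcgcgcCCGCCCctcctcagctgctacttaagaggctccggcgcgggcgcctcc

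All 9 members were matched to a RefSeq promoter. The Tubb4a window, 62.8% G or C, held none of the 3 motifs, and no match says only that these letters are not in it. The Tuba1a window (56.8% G or C) held 1 GC box and 1 CCAAT box. The Tuba1b window (80.4% G or C) held 3 GC boxes and 1 CCAAT box. Each of the other 8 members held at least 1 match. Among 33465 promoters of the same length, 30.5% held a GC box, 34% a CCAAT box and 12.9% a TATA box, and the median G or C content was 51.2%. These matches are a description of sequence and no binding was measured.

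Library totals ran from 198260 to 18310687 counts with a median of 9232563, and 4 Desipramine libraries held under 1000000. All 9 members passed the low-count filter in every region. Over all regions 15427 genes were tested. Some libraries stood apart from their labels. FT libraries labelled ILC had 255 ± 39.4 CPM (SD, n = 5) of Dbh, the enzyme that makes noradrenaline, against 0.651 CPM in FT libraries labelled LConly, and Tbr1, a cortical neuron factor, stood the other way round at 0.485 and 18.1 CPM. Control ILC libraries had 23.4 CPM of Slc17a7, the vesicular glutamate transporter of cortical neurons, against 274 to 370 in the Maltodextrin, Bupropion, Desipramine and Probiotics ILC libraries. The Probiotics libraries labelled dorDG had 28.6 ± 3.30 CPM of Slc17a7 against 444 ± 12.8 in Maltodextrin, and 597 ± 39.7 CPM of Mbp, a myelin protein, against 5799 ± 682. Values over all regions that rest on these libraries are given with and without them where that changes a call. Counts of calls by region include these libraries throughout. Most tested members were called higher in ILC in each comparison of a drug or Maltodextrin with Control. In dorDG most were called lower in Probiotics against Maltodextrin. In bulk tissue, fewer cells of a type and less RNA per cell cannot be told apart.

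Among the members, Tubb4a moved most between treatments, a ranking that includes Probiotics and Maltodextrin, the groups it was selected on. Over Control and the drugs alone, Tubb3 moved more relative to its level in means averaged over regions. These ran from 416 to 929 CPM for Tubb3 and from 988 to 1629 for Tubb4a. Within regions Tubb4a moved more in those groups. The SD of its group mean log2 CPM, centred within region, was 0.79, against 0.59 for Tubb3. Averaged over the 10 regions, Tubb4a CPM in the 5 Probiotics replicates was 1814, 1792, 1850.3, 1929.8 and 1954. The Maltodextrin replicates, the group given maltodextrin alone, had 599, 596, 598, 606 and 630. Control replicates fell between, at 1232, 1164, 1164, 1223 and 1248. The 3 groups did not overlap: every Probiotics value was above every Control value, and every Control value above every Maltodextrin value. Bupropion replicates had 1578, 1529.9, 1610.2, 1646 and 1782 CPM, all above Control. Desipramine replicates had 955, 1001, 944, 995 and 1045, all below Control and above Maltodextrin. FT replicates had 996, 1715, 1641, 1792 and 1869, so 4 lay above Control and the first below it.

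**Figure D1:**
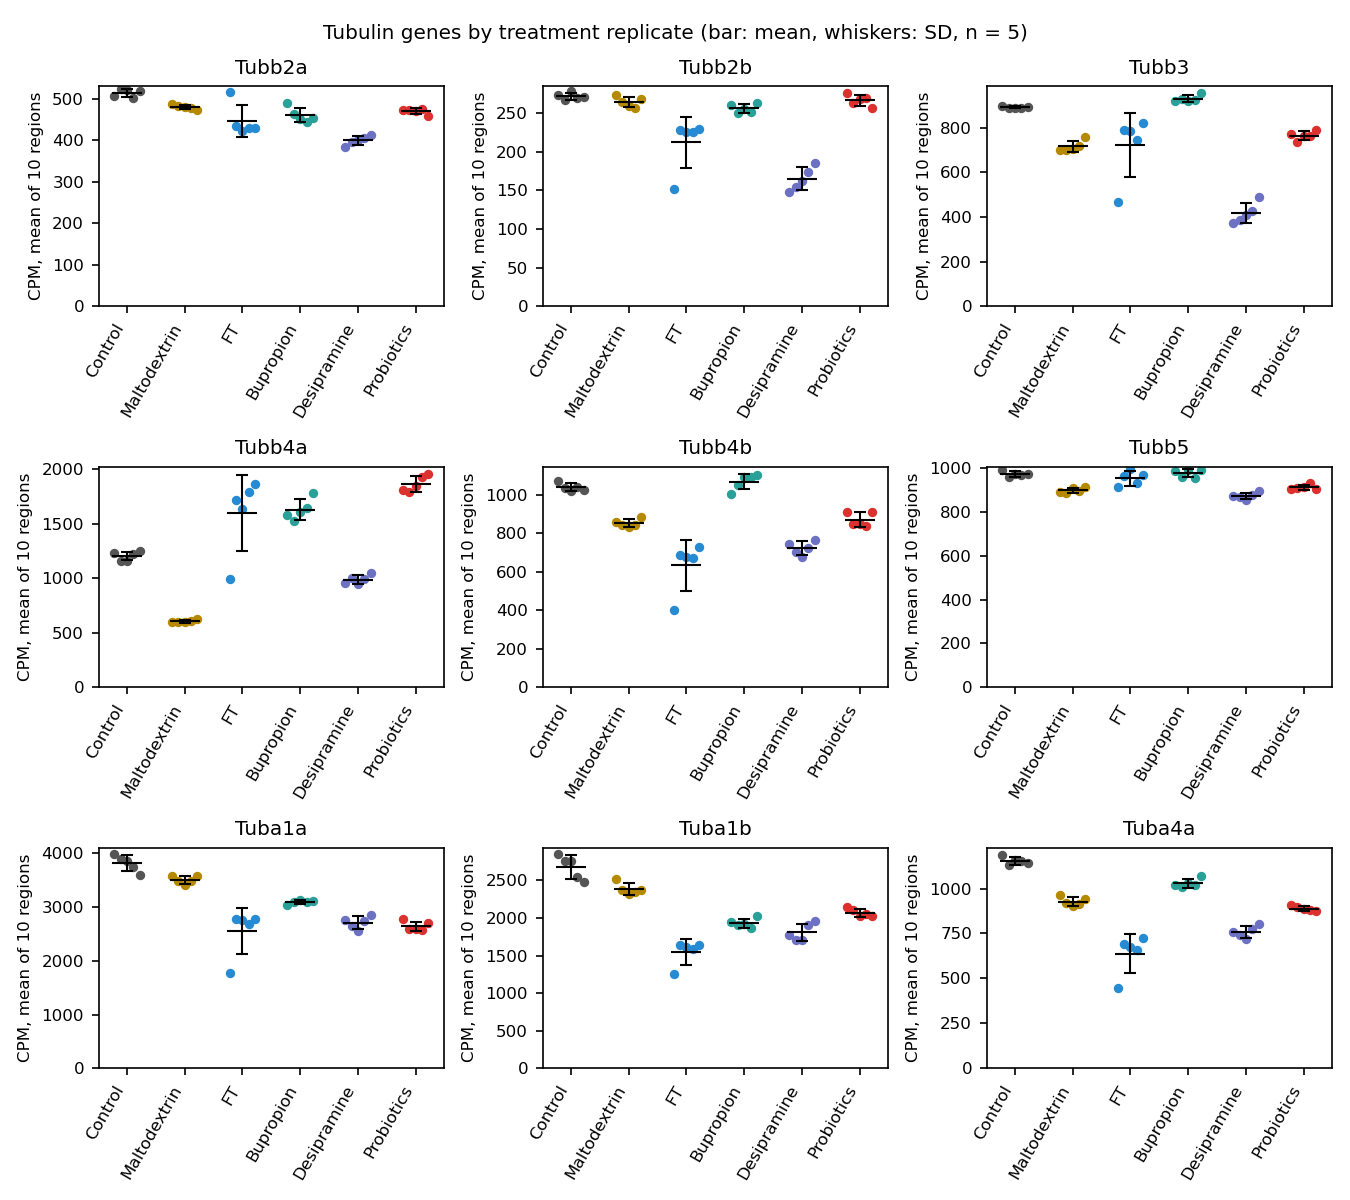
CPM of each tubulin gene, averaged over 10 regions (y axis, from 0, scaled per gene), for the 5 replicates of each treatment (points), with the mean and SD. Tubb4a runs from 606 CPM in Maltodextrin to 1868 in Probiotics, Tubb3 is lowest in Desipramine at 416, and FT replicate 1 is apart from the other 4 in most panels.

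Against Maltodextrin, Tubb4a was 3.14-fold higher in Probiotics in the fit over all regions, a log2 change of 1.65 ± 0.10 (SE). CPM is relative to each library's total, whereas fitted changes are scaled by TMM, a trimmed mean over genes, so the size of a change can differ between them, and so can its sign where it is small. In 2 to 12 of the 90 pairs of a member and a region in each comparison, the ratio of mean CPM and the fitted change had opposite signs, with 2 calls or fewer among them in each comparison. In all 10 regions the 5 Probiotics libraries lay above the 5 Maltodextrin libraries. The change was largest in NACShell, with a log2 change of 2.64. There the Probiotics libraries had 1503, 1355, 1471, 1417 and 1404 CPM and the Maltodextrin libraries 236, 231, 213, 237 and 246. LConly was close, at 2.59, with 4004, 3896, 4011, 4482 and 4675 CPM in Probiotics and 696, 752, 728, 741 and 755 in Maltodextrin. It was smallest in venDG, at 1.02, where Probiotics libraries had 2029, 2094, 2189, 2194 and 2189 CPM against 1219, 1092, 1063, 1113 and 1238. The other 7 regions lay between 1.21 (dorDG) and 1.75 (PLC). Without dorDG the change over regions was 1.67.

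The size of the difference changed with the reference group. Maltodextrin itself was below Control for Tubb4a, with a log2 change of -1.10 over all regions. All 5 Maltodextrin libraries were below all 5 Control libraries in 6 regions, most of all in PLC at -2.38 and mPOA at -2.03. They were all above Control in BLA (0.98) and LConly (0.61), and the groups overlapped in dorDG (-0.06) and ILC (-0.24). Set against Control in place of Maltodextrin, Probiotics was higher by 0.55 on the log2 scale, or 1.47-fold. That comparison was not uniform. Probiotics libraries were all above Control in 7 regions, from 0.37 in venDG to 3.19 in LConly, all below it in mPOA (-0.74) and PLC (-0.63), and overlapped it in CGC (0.016). The Control libraries of LConly had 427, 419, 459, 415 and 467 CPM, the lowest of the 3 groups there, whereas in venDG they had 1854, 1639, 1832, 1779.7 and 1869, between Maltodextrin and Probiotics.

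**Figure D2:**
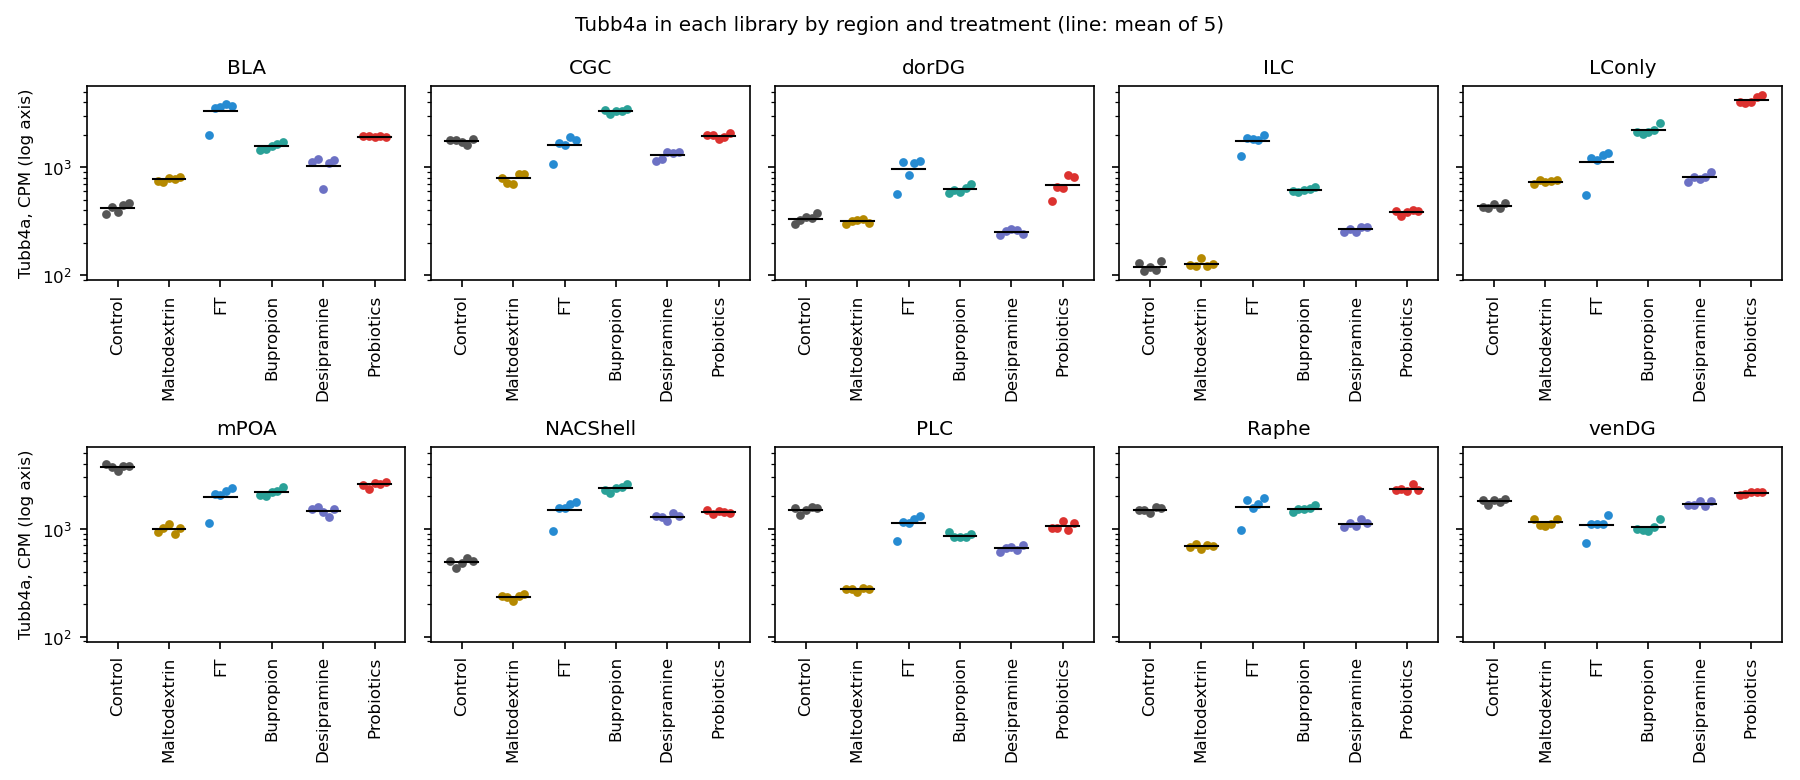
Tubb4a in all 300 libraries: CPM on a log axis by treatment, with one panel per region and a line at the mean of 5. Probiotics points are above Maltodextrin points in every panel, and Control points lie at different places, from 120.0 CPM (mean) in ILC to 3733 in mPOA.

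The order of regions by Tubb4a level also differed between treatments. In Control, mPOA was highest at 3733 ± 195 CPM, separate from venDG (1795 ± 93.6) and CGC (1736 ± 87.0), which overlapped each other. PLC and Raphe followed at 1500.3 ± 105 and 1500.2 ± 67.3 and could not be separated. NACShell, LConly, BLA and dorDG ran from 487 ± 36.8 down to 334 ± 27.9, each overlapping its neighbour, and ILC was lowest at 120.0 ± 11.6. In Maltodextrin the highest was venDG (1145 ± 78.6), which overlapped mPOA (988 ± 76.8), and CGC, BLA, LConly and Raphe formed a run of overlapping neighbours from 786 to 684. In Probiotics LConly was highest at 4213 ± 343, clear of mPOA at 2572 ± 136 and Raphe at 2329.8 ± 135, which overlapped each other. ILC was the lowest region in each of these 3 groups. The highest region held 31.1 times the CPM of the lowest in Control and 9.02 times in Maltodextrin, and the Probiotics extremes were LConly and ILC (384 CPM). Without ILC, whose Control libraries stand apart, the ratio was 11.2 in Control, 4.92 in Maltodextrin and 6.14 in Probiotics.

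Within a region, the treatment mean that was highest held from 2.06 times (venDG) to 14.6 times (ILC) the CPM of the lowest. The ILC span set FT at 1751 CPM against Control at 120.0, and those FT libraries carry the markers of another label. The next spans were 10.2 times in NACShell, where Bupropion (2369) and Maltodextrin (232) were the extremes, and 9.63 times in LConly. Because Tubb4a was selected on Probiotics and Maltodextrin, its spread is set beside other genes over the remaining 40 groups of Control and the 3 drugs. There the SD of the group mean log2 CPM, centred within region, was 0.79 for Tubb4a, which ranked 90 of 8543 genes, against 0.262 for the median gene. Its median SD within a group was 0.125, as for the median gene (0.125). The other members ranked from 342 (Tubb3, 0.59) to 5880 (Tubb5, 0.21). These 40 groups include the FT libraries labelled ILC and LConly and the Control ILC libraries, which stand apart from their labels. Ranks without them are not given.

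Under the 3 drugs, Tubb4a gave a different sign in different regions. Over all regions Bupropion was higher than Control by 0.41 (edgeR adjusted p = 0.00114), with 6 regions called higher, 3 lower and 1 not called. The range ran from -0.87 in venDG to 2.33 in LConly. This call was lost without ILC and LConly (0.17, adjusted p = 0.146) and in a narrower set of 5 regions (Raphe, PLC, NACShell, mPOA and CGC; 0.18, adjusted p = 0.144). Desipramine was lower than Control (log2 -0.53, edgeR adjusted p = 3.67e-05), with 4 regions called higher and 6 lower, from -1.59 in mPOA to 1.37 in BLA. Where every region weighed the same, the Desipramine change was -0.11 (limma adjusted p = 0.354). Against Control and Maltodextrin pooled it was 0.016, given as a description, since Tubb4a was selected on its level in Maltodextrin.

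For FT the change of Tubb4a over all regions was 0.18 (edgeR adjusted p = 0.121), which hides 5 regions called higher and 5 called lower. In Raphe, 1 of the regions called lower (-0.26), mean CPM was higher in FT (1593 against 1500.2). The lowest was mPOA at -1.05 and the highest ILC at 3.43. The value turned to -0.026 (adjusted p = 0.841) without ILC and LConly and to -0.39 (adjusted p = 0.00162) in the narrower set of 5 regions. It was 0.70 (limma adjusted p = 1.53e-06) where regions weighed the same, 0.32 (adjusted p = 4.00e-07) without FT replicate 1 and 0.37 (adjusted p = 0.000678) by library totals. No single direction of Tubb4a under FT held across these settings.

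Tubb4a is a gene of myelinating cells among others, so the markers of mature oligodendrocytes are given beside it. Of 18 such genes 17 were in the table, and none was at 0 in any treatment. Their summed level averaged over regions was 34394 ± 1345 CPM in Maltodextrin (33124.5 to 36235 over 5 replicates), 34230.2 ± 1875 in Probiotics (32303.4 to 36801.2) and 34474 ± 1749 in Control. The 3 ranges overlapped. In Probiotics against Maltodextrin 4 of the 17 were called higher, 6 lower and 7 not, with a median log2 change of 0.035, beside 0.072 for all genes (34.2% of all genes were called higher and 22% lower). Of the most abundant, Mbp changed by 0.040 (edgeR adjusted p = 0.786) and Mobp by 0.038 (0.518). Named after their values were seen, Mal (-0.35) and Opalin (-0.26) were among the 6 that fell, and Mag (0.79) and Myrf (0.57) among the 4 that rose.

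By region, the myelin sum moved with Tubb4a in some places and not in others. In NACShell it was 23042 CPM in Probiotics and 17413 in Maltodextrin, and in LConly 88566 and 77634. In dorDG it was lower in Probiotics (4804 against 10874), as it was in venDG (28879.8 against 37845), whereas Tubb4a was higher in both. FT libraries labelled BLA held 100185 CPM of these markers against 22518 in Control, beside 3344 and 418 CPM of Tubb4a. FT libraries labelled ILC held 40079 against 2716, and Desipramine mPOA libraries 30311 against 56929 in Control. The part of these differences in the Tubb4a values, with Probiotics or under drugs, was not tested.

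**Figure D3:**
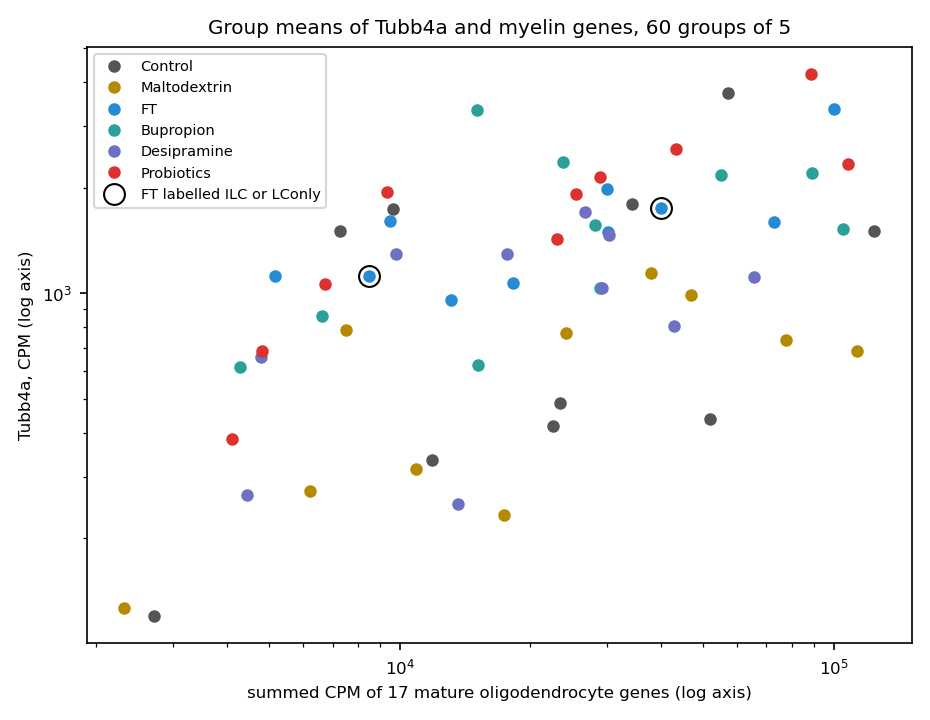
Group mean CPM of Tubb4a (y) against the summed CPM of 17 mature oligodendrocyte genes (x), both log axes, for 60 groups of 5 libraries; circles mark FT libraries labelled ILC or LConly. In Raphe, Tubb4a was at 2329.8 CPM in Probiotics and 684 in Maltodextrin, at myelin sums of 108088 and 113098. Probiotics and Maltodextrin sums lay further apart in some regions, such as NACShell and dorDG.

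None of the other 8 tubulins rose with Probiotics over all regions. Against Maltodextrin, 0 were called higher, 3 lower and 5 not called, where 56.2% of all genes were called, 34.2% higher and 22% lower (edgeR quasi-likelihood test, Benjamini-Hochberg adjusted p under 0.05). At an unadjusted p under 0.05, 0 were higher as well, and DESeq2 also called 0 higher and 3 lower. The median of the 8 was -0.056, beside 0.072 over all genes. Tubb3 changed by 0.047 (adjusted p = 0.709), Tubb4b by 0.010 (0.939), Tubb2b by -0.011 (0.917), Tubb5 by -0.033 (0.409) and Tuba4a by -0.10 (0.277). For these 5, Probiotics and Maltodextrin replicates overlapped, where 43.8% of all genes had replicates that did not. Tuba4a passed as lower without ILC and LConly (-0.20, adjusted p = 0.0291) and with only the groups compared in the fit (-0.10, 0.00826).

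The 3 that fell include both Tuba1 genes. Tuba1a had 2769, 2595, 2582, 2564 and 2697 CPM in the Probiotics replicates against 3569.6, 3481, 3405, 3476 and 3583 in Maltodextrin, with no overlap. Its log2 change was -0.47 ± 0.081 (SE, edgeR adjusted p = 1.50e-05). The change was below 0 in 10 of 10 regions, a pattern shown by 7.85% of genes tested everywhere, and was called in 6. In 7 regions every Probiotics library was below every Maltodextrin library. Tuba1a ran from -1.83 in dorDG to -0.11 in CGC, and without dorDG the change was -0.38 (adjusted p = 0.000253).

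Tuba1b had 2148, 2102, 2022, 2057 and 2024 CPM in Probiotics and 2518, 2378, 2322, 2349.8 and 2369 in Maltodextrin, again with no overlap. Its change was -0.26 (edgeR adjusted p = 0.00119), called lower in 4 regions and higher in none. It was -0.17 (adjusted p = 0.0304) without dorDG, a smaller change than with it. In dorDG Tuba1b had 379, 330.4, 288, 243 and 239 CPM in Probiotics against 1577, 1623, 1448, 1553 and 1625 in Maltodextrin, a log2 change of -2.32. Tuba1a there was 718 against 2707 CPM and Tubb2a 195 against 508. These are the libraries in which Mbp, Slc17a7 and Snap25, a presynaptic protein (2168 ± 374 against 4444.5 ± 170.3 CPM), were also low.

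Tubb2a was called lower with a change of -0.078 (edgeR adjusted p = 0.0383), though its Probiotics and Maltodextrin replicates overlapped. That call rested on dorDG: without it the change was 0.031 (adjusted p = 0.444). It was also lost by library totals (-0.062, adjusted p = 0.179) and when Maltodextrin replicate 1 (adjusted p = 0.0535), Maltodextrin replicate 5 (0.0562) or Probiotics replicate 1 (0.0614) was left out.

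**Figure D4:**
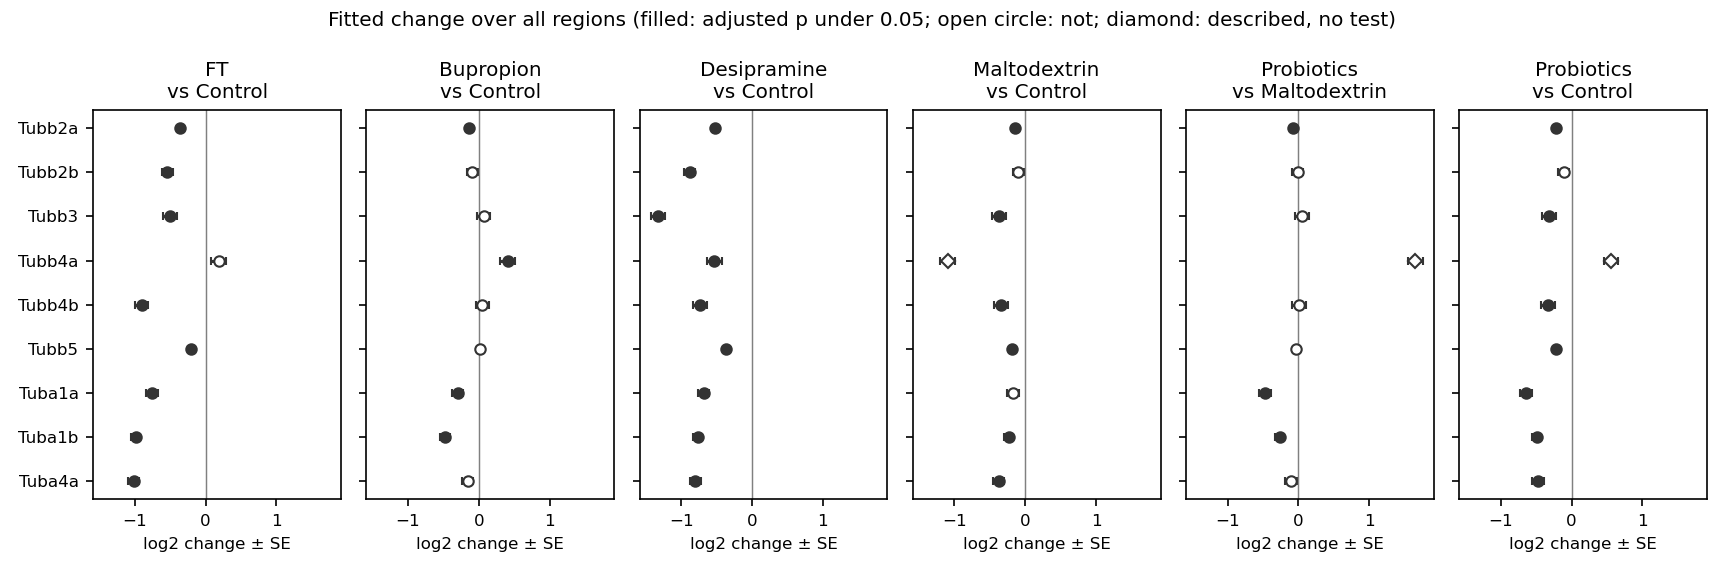
Fitted log2 change over all regions with its SE (x) for the 9 genes (y) in 6 comparisons, filled where the adjusted p was under 0.05, open where not, and diamonds for Tubb4a where it is only described. Tubb4a stands at 1.65 in Probiotics against Maltodextrin while the other 8 lie between -0.47 and 0.047.

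Region by region, the other 8 gave 33 calls of 80 in Probiotics against Maltodextrin, 11 higher and 22 lower, where 42.8% of all gene and region pairs were called, 21.7% higher and 21.1% lower. Tubb3, the neuronal beta-tubulin, was called higher in 2 regions and lower in none, and its highest value was 0.35 in ILC. Tubb2a was called higher in 3 and lower in 3, from -1.29 in dorDG to 0.63 in ILC. Tuba4a was called higher in 3 and lower in 4, from -0.81 in dorDG to 0.45 in LConly. Tubb5 gave 2 and 2, Tubb4b 1 higher and 2 lower, and Tubb2b 1 lower.

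**Figure D5:**
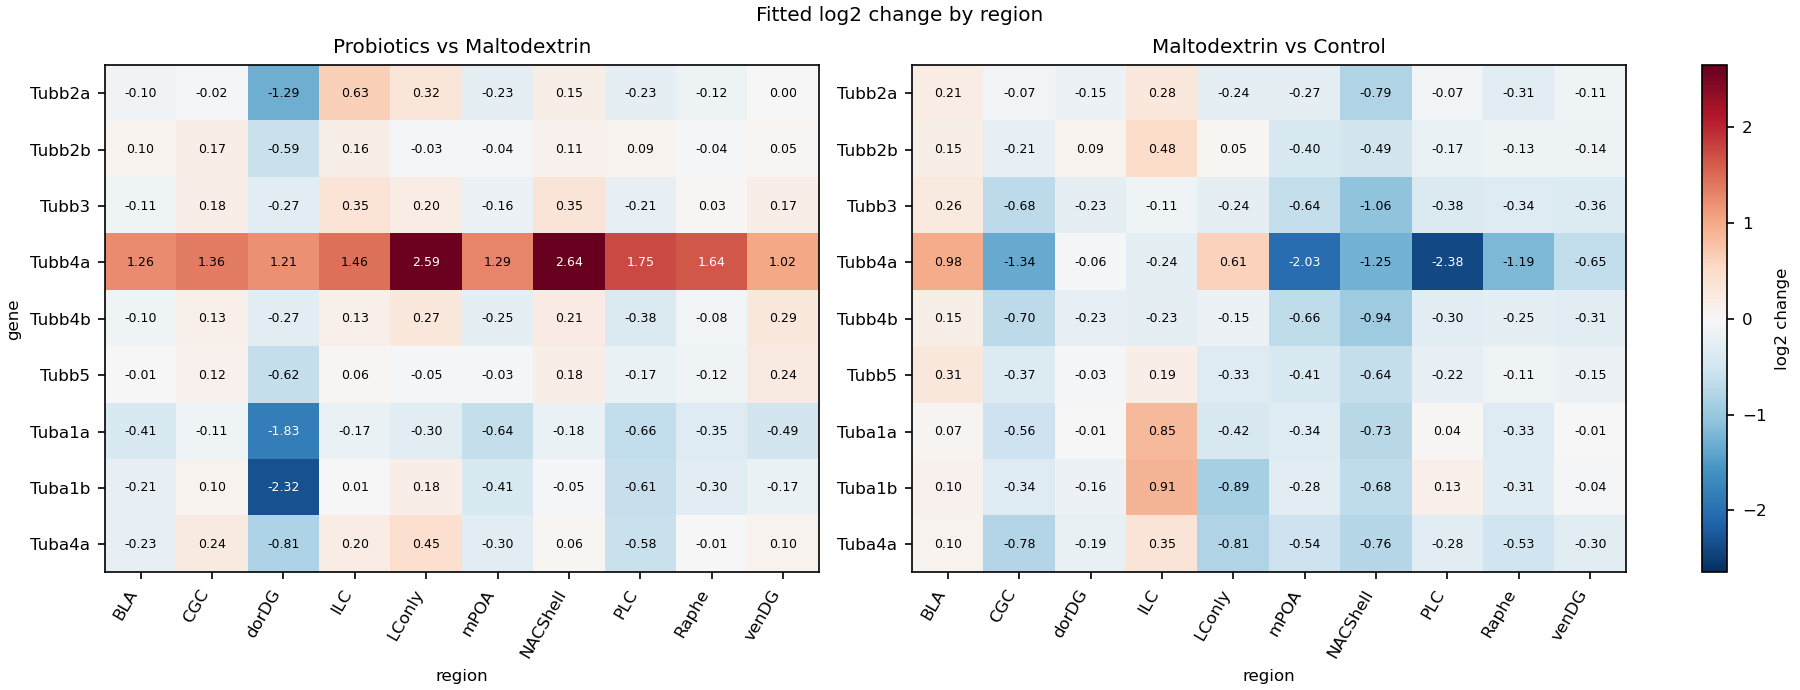
Fitted log2 change of each tubulin gene (rows) in each region (columns) for Probiotics against Maltodextrin and for Maltodextrin against Control, red above 0 and blue below. The Tubb4a row is red in all 10 regions on the left, from 1.02 to 2.64, and the dorDG column is blue for the other 8 genes.

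Most of the family was lower in Maltodextrin than in Control. Of the 8 genes tested, 6 were called lower, 0 higher and 2 not, where 48.7% of genes were called, 17.4% higher and 31.3% lower. Tuba4a was 928 ± 24.9 CPM in Maltodextrin and 1155 ± 22.4 in Control (log2 -0.37, edgeR adjusted p = 0.000334). Tubb3 was 716 ± 25.2 against 891 ± 4.03 (-0.37, adjusted p = 0.00266) and Tubb4b 852 ± 20.6 against 1039.8 ± 19.5 (-0.34, adjusted p = 0.00413). The smaller declines were Tuba1b (-0.23), Tubb5 (-0.18) and Tubb2a (-0.14). Tuba1a (-0.17, adjusted p = 0.0755) and Tubb2b (-0.099, adjusted p = 0.294) did not pass. Among regions NACShell gave the lowest value for 6 of these 8 genes, from -0.49 for Tubb2b to -1.06 for Tubb3, and calls numbered 48 of 80 (8 higher, 40 lower, with 37.9% of all pairs called, 18.4% higher and 19.5% lower). Probiotics against Control also left 7 of the 8 lower, 0 higher and 1 (Tubb2b, -0.11, edgeR adjusted p = 0.227) not called, where 55.2% of genes were called, 26.3% higher and 28.8% lower. By library totals Tubb2a in Maltodextrin was no longer called (-0.056, adjusted p = 0.239), and Tuba1b was not with equal weight of regions (-0.16, limma adjusted p = 0.0713). The comparisons with Control share the same Control libraries.

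In the fit over all regions, every tubulin but Tubb4a was lower in FT than in Control. In CPM averaged over regions, FT and Control replicates overlapped for Tubb5 (954 ± 33.9 against 973 ± 11.7) and Tubb2a (446 ± 39.1 against 515 ± 9.42). Over all regions 8 of 9 were called lower and 0 higher, where 61.6% of genes were called, 25.4% higher and 36.2% lower, and the members' median was -0.54 beside -0.057 for all genes. Tuba4a fell by 1.02 on the log2 scale (edgeR adjusted p = 5.18e-12). Its 5 FT replicates had 445, 689, 675, 658 and 725 CPM against 1188, 1129, 1160.5, 1155 and 1141 in Control, with no overlap. It was called lower in 10 of 10 regions, which held for 1.05% of genes. These include ILC and LConly, whose FT libraries carry each other's markers. There FT and Control libraries overlapped, with means of 448 against 494 CPM in ILC and 750 against 989 in LConly. Tuba1b fell by 0.99 (adjusted p = 1.27e-13) and Tuba1a by 0.76 (2.88e-09).

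Of the beta-tubulins, Tubb4b fell by 0.90 under FT (edgeR adjusted p = 2.56e-09). Its FT replicates had 402, 686, 679, 672 and 727 CPM against 1072, 1036, 1022, 1042 and 1027. Tubb2b fell by 0.54 (adjusted p = 5.01e-07), Tubb3 by 0.51 (5.49e-05), Tubb2a by 0.36 (7.09e-11) and Tubb5 by 0.21 (2.93e-06). The Tubb5 call depended on scaling: by library totals its change was -0.0069 (adjusted p = 0.818), since all genes had a median of 0.135 on that scale. FT replicate 1 was the lowest FT library in 10 of 10 regions for 7 of the 9 genes, and in 7 regions for Tubb5 and 0 for Tubb2a. Its library total was also the lowest of FT in each region. In LConly it was 3692669 counts, where the other FT libraries held 7975138 to 8673042. The part of depth in its values was not tested. Without FT replicate 1 the same number of members, 8, was called lower. DESeq2, and edgeR at an unadjusted p under 0.05, also called 0 members higher over all regions in FT, in Desipramine and in Maltodextrin against Control. By region FT gave 81 calls of 90, 12 higher and 69 lower, with 53.4% of all pairs called, 27.1% higher and 26.3% lower.

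With Desipramine all 9 genes were called lower over all regions and 0 higher, where 70.5% of genes were called, 26% higher and 44.6% lower, and the members' median was -0.73 beside -0.12 for all genes. Tubb3 had the largest decline. Its Desipramine replicates had 372, 387, 409, 426 and 487 CPM against 895, 886, 889, 889 and 894 in Control, with no overlap. That is a log2 change of -1.33 (edgeR adjusted p = 2.10e-12), and Tubb3 was called lower in 10 of 10 regions, as were 2.72% of genes. In ILC, where the Control libraries stand apart, the libraries overlapped, with means of 417 against 426 CPM. Tubb2b fell by 0.88, Tuba4a by 0.80, Tuba1b by 0.76, Tubb4b by 0.73, Tuba1a by 0.68, Tubb2a by 0.52 and Tubb5 by 0.36, and none of these replicates overlapped Control, where 22.4% of all genes lay wholly below it. By region there were 85 calls of 90, 9 higher and 76 lower, with 54.3% of all pairs called, 26.4% higher and 27.9% lower. The myelin sum was also lower in Desipramine, at 24509 ± 1495 CPM.

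With Bupropion 1 member was called higher (Tubb4a), 3 lower and 5 not, where 58% of genes were called, 22.1% higher and 35.9% lower. The count of 4 called was 7 with only the groups compared or with Control and Maltodextrin pooled, and without ILC and LConly 0 were higher and 5 lower. The pooled reference holds Maltodextrin, a group Tubb4a was selected on, so a call of Tubb4a there is no test of that gene. Tuba1b fell by 0.48 (edgeR adjusted p = 3.72e-07), from 2678 ± 157 CPM in Control to 1931 ± 57.4, Tuba1a by 0.30 (0.00231) and Tubb2a by 0.14 (0.000305). The beta-tubulins Tubb2b (-0.092, adjusted p = 0.31), Tubb3 (0.067, 0.58), Tubb4b (0.051, 0.673) and Tubb5 (0.021, 0.616) did not pass, nor did Tuba4a (-0.15, 0.0984). By region there were 61 calls of 90, 19 higher and 42 lower, with 46.3% of all pairs called, 22.9% higher and 23.4% lower. The highest value was in ILC for each of these 8 genes, from 0.70 for Tubb5 to 1.13 for Tuba1a, against the Control ILC libraries in which Slc17a7 was low.

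Whether the Probiotics effect (against Maltodextrin) differed from a drug's effect (against Control) was tested directly for the 8 genes. Against FT all 8 differences were called, each with the Probiotics effect the higher of the pair, from 0.18 for Tubb5 to 0.92 for Tuba4a (58.4% of genes were called, 37.9% higher). The Tuba1a difference, 0.29 (edgeR adjusted p = 0.0315), was lost by library totals (0.11, 0.332) and without Control replicate 1 (0.0608) or 2 (0.0587), Maltodextrin replicate 3 (0.0522) or 4 (0.0502), or Probiotics replicate 1 (0.0505) or 5 (0.0592). By library totals those of Tubb2a (0.098, adjusted p = 0.131) and Tubb5 (0.0033, 0.942) were lost too. Against Desipramine 7 of 8 were called higher (71.5% of genes were called, 46.8% higher). Tubb3 differed most, by 1.38 (edgeR adjusted p = 1.06e-09), and Tuba1a was not called at 0.21 (0.0976), but passed without dorDG (0.32, 0.0150). Against Bupropion 0 of 8 were called, where 46% of genes were. At an unadjusted p under 0.05, 1 was higher, Tuba1b at 0.22 ± 0.092 (SE, edgeR adjusted p = 0.0539). Tuba1b passed by library totals (0.23, adjusted p = 0.0135), without dorDG (0.33, 0.00541) and without Control replicate 4 (0.0382), Control replicate 5 (0.0289) or Bupropion replicate 5 (0.0414), so a lack of difference from Bupropion is not shown. For Tubb4a, as a description, the Probiotics effect was above that of FT by 1.47, of Bupropion by 1.24 and of Desipramine by 2.18.

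The treatment effect on each tested member also differed between regions. The treatment-by-region test called 9 of 9 genes for FT, for Bupropion and for Desipramine, and 8 of 8 for Probiotics against Maltodextrin and for Maltodextrin against Control. The same test called 92.6%, 90.2%, 87.2%, 82.3% and 89.8% of all genes, so the members' share was near that of all genes.

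Region also shaped the levels of the other members. In Control, Tuba1a was highest in Raphe at 5907 CPM and lowest in ILC at 1284, and Tuba1b highest in LConly at 4649 and lowest in ILC at 814. Tubb3 was highest in Raphe (1259.6) and lowest in dorDG (393), and dorDG was its lowest region in all 6 treatments. Tubb5 was highest in PLC in all 6. The ratio of highest to lowest region in Control ran from 2.17 for Tubb5 to 5.71 for Tuba1b among these 8, beside 31.1 for Tubb4a. Without ILC it ran from 1.73 for Tubb2a to 3.21 for Tubb3, with 2.61 for Tuba1b, beside 11.2 for Tubb4a.

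Across the 60 group means, centred within region, the genes whose pattern was most like Tubb4a were Rab11b, a recycling-endosome GTPase (r = 0.921), Snapc2 (0.894), Paqr4 (0.886), Ccdc92 (0.886) and Tln1, the integrin adaptor talin (0.881). These correlations are a description: the points share libraries, treatments and depth. Rab11b was higher in Probiotics than in Maltodextrin by 1.04, Ccdc92 by 0.74, Snapc2 by 0.62, Paqr4 by 0.49 and Tln1 by 0.47, which is a description, since they were chosen for likeness over groups that include these. Without centring, the nearest were Snapc2 (0.894), Tln1 (0.882), Vars (0.864), Abca2 (0.859) and Rab11b (0.858). With other tubulins Tubb4a had r from -0.086 (Tuba1a) to 0.411 (Tubb3). It had r = 0.543 with Mbp, 0.342 with Mobp, 0.312 with Mog and -0.346 with Snap25.

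Some pairs among the other members had higher values. Tuba1a and Tuba1b had r = 0.926, Tubb4b and Tuba4a 0.9, and Tubb2b and Tubb3 0.883. The Tuba1 pair and the Tubb2 genes can share reads, which bears on such values. Outside the family the nearest genes were Ndufv1 (0.928), Xab2 (0.92) and Atp5d (0.916) for Tubb3, Pkm (0.944), Atp6v0e2 (0.943) and Prkar1a (0.934) for Tuba4a, and Atp5a1 (0.918), Eno1 (0.914) and Dpp3 (0.904) for Tubb4b. For Tuba1a they were Gabarapl1 (0.913) and Atp5b (0.9), and for Tuba1b Prdx6 (0.916) and Plekhb2 (0.893). Tubb2a had Syt13 (0.872), Rfng (0.87) and Usp5 (0.87), Tubb2b had Mrps27 (0.883) and Ndufa11 (0.867), and Tubb5 had Actg1 (0.873), Prkar1b (0.839) and Otub1 (0.829).

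Other genes of the microtubule system were taken from lists and set beside the members for Probiotics against Maltodextrin, where 34.2% of all genes were called higher and 22% lower and the all-gene median was 0.072. Of 11 further tubulin genes 10 were in the table and 9 were tested, with 5 called higher, 2 lower and 2 not. Tubg2 (0.31) and Tubg1 (0.24), gamma-tubulins that seed microtubules, rose, as did Tuba8 (0.22). Tubal3 (2.43) and Tuba3a (1.51) rose at very low levels, from 0.0875 to 0.439 and from 0.103 to 0.284 CPM. Tube1 (-0.39) and Tubd1 (-0.23), tubulins of the centriole, fell, and Tuba1c (-0.14, edgeR adjusted p = 0.516) and Tubb6 (-0.061, 0.589) did not pass.

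The factors that fold tubulin gave 3 higher, 7 lower and 10 not of 20, with a median of -0.052, against the same shares of all genes. Of these Cct5, a chaperonin subunit, rose by 0.42 (edgeR adjusted p = 6.47e-10) and Pfdn6, of prefoldin, by 0.22 (3.35e-05), while the chaperonin subunits Cct2 (-0.21) and Cct4 (-0.17) fell. Microtubule-associated proteins gave 22 higher, 5 lower and 6 not of 33, with a median of 0.27, beside 34.2% higher and 22% lower over all genes. Map1a, a microtubule-associated protein of mature neurons, rose by 0.72 (adjusted p = 1.57e-18), Map6d1 by 0.68 (1.40e-11), Crmp1 by 0.50 (6.31e-14) and Mapt, which encodes tau, by 0.42 (5.40e-14). The same list gave 8 higher and 13 lower in Maltodextrin against Control, where 17.4% and 31.3% of all genes were called.

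Enzymes that modify or sever tubulin gave 5 higher, 1 lower and 10 not of 16, with a median of 0.10. Ttll1, which glutamylates tubulin, rose by 0.25, Atat1, the alpha-tubulin acetyltransferase, by 0.36, Agtpbp1, which trims glutamates, by 0.10 and Ttll12 by 0.33. Motors gave 10 higher, 2 lower and 7 not of 19, with a median of 0.14 (all genes, 34.2% higher and 22% lower). Kif5a rose by 0.64 and Kif5c by 0.44, both kinesin heavy chains, and Dync1i1, a dynein intermediate chain, by 0.63, whereas Dynll1, a dynein light chain, fell by 0.55. Beside these, markers of all neurons gave 8 higher, 2 lower and 2 not of 12 (summed 13266 CPM in Probiotics, 12452 in Maltodextrin) and those of astrocytes 5, 4 and 2 of 11 (8043 and 8826). The part of cell composition in these list counts was not tested.

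Markers of the other cell types a punch can hold gave these counts in Probiotics against Maltodextrin, where 34.2% of all genes were called higher and 22% lower. Oligodendrocyte precursor genes gave 7 higher, 1 lower and 2 not of 10, microglial genes 4, 1 and 7 of 12 (1083 against 1089 CPM), choroid plexus genes 7, 0 and 4 of 11 (2384 against 1994), endothelial genes 2, 3 and 6 of 11, excitatory neuron genes 3, 1 and 4 of 8 (919.8 against 834), GABAergic genes 2, 1 and 6 of 9, and immature neuron genes 3, 2 and 3 of 8. The part of these cell types in the members' values was not tested.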

How the data were processed

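RNA was sequenced from 300 libraries, and the authors deposited one table of raw counts per gene symbol. STAR, HTSeq, FastQC and build rn6 are named in the submitters' processing notes, and no source used here gives their versions. The kit was stranded total RNA with paired-end reads, per the labels' protocols. No column of sample values was left unused. From the deposited counts, CPM by library total, edgeR 4.0.16 quasi-likelihood tests (TMM, filterByExpr, R 4.3.3) and limma 3.58.1 or DESeq2 1.42.0 alternatives were computed here. Counts were summed over 10 regions within each treatment replicate (30 sums, with an offset for the depth of each region), or fitted per region with all 6 treatments. Log2 values used a prior count of 2. Adjusted p-values are Benjamini-Hochberg values over all tested genes, with a threshold of 0.05.

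The members and lists were chosen with earlier results of these data known. All 9 members are named. From each pathway list up to 4 genes with the smallest p in Probiotics against Maltodextrin are named, from marker lists up to 3 by level (1 of them is not reported here), and by likeness the top 3 genes for each member (5 for Tubb4a, also without centring) with mean log2 CPM over 3. Scaling by library totals, leaving out dorDG, leaving out ILC from ratios between regions, taking the spread over 40 groups and setting Probiotics against Control were chosen after seeing the data. Tests were tried on simulated data. Of 600 pairs of libraries within a group, none agreed within sampling noise (lowest chi-square per degree of freedom 1.34). All-gene median log2 changes under TMM and library totals were -0.057 and 0.14 for FT, -0.12 and 0.093 for Desipramine, -0.068 and -0.063 for Bupropion, 0.072 and 0.092 for Probiotics against Maltodextrin, and -0.061 and 0.033 for Maltodextrin.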

Additional observations from a re-analysis of the deposited data

Results flagged for a closer look

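Of 114 groups of 5 tested, 21 had 1 value far from the other 4 by Dixon's criterion (0.71 for 5 samples), where chance gives about 1 in 20. Most were FT replicate 1, which also had the lowest library total of FT in each region. Averaged over regions FT replicate 1 was low for Tubb2b (152 CPM), Tubb3 (467), Tubb4a (996), Tubb4b (402), Tuba1a (1779), Tuba1b (1249.6) and Tuba4a (445). It was high for Tubb2a (516, where the others had 423 to 436). For Tubb4a in single regions it was low in BLA (1983 CPM), LConly (548), mPOA (1123) and NACShell (946).

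Other replicates stood apart singly. Averaged over regions these were Bupropion replicate 5 for Tubb3 (956 CPM), Maltodextrin replicate 5 for Tubb4a (630.4) and Maltodextrin replicate 1 for Tuba1b (2518). For Tubb4a by region they were Maltodextrin replicate 3 in ILC (144) and PLC (258), Bupropion replicate 5 in LConly (2545), Probiotics replicate 2 in ILC (350.3) and replicate 4 in Raphe (2565), and Desipramine replicate 3 in BLA (620.4), a library of 198260 counts.

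Treatment effects differed between regions for 9 of 9 members under FT, 9 of 9 under Bupropion and 9 of 9 under Desipramine, and for 8 of 8 in Probiotics against Maltodextrin and in Maltodextrin against Control, by the treatment-by-region test. The same test called 92.6%, 90.2%, 87.2%, 82.3% and 89.8% of all genes in these comparisons.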

How the results depend on the processing

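Replicate numbers did not pair the samples between treatments: same-numbered libraries of the groups compared had correlations of -0.051 to 0.102. Within FT, same-numbered libraries of different regions had a median r of 0.108, against 0.0262 for other numbers. In the other treatments the same-number median was 0.00755 to 0.0201. With a replicate block the counts of members called over all regions were unchanged, at 8 for FT, 4 for Bupropion, 9 for Desipramine, 3 for Probiotics against Maltodextrin and 6 for Maltodextrin against Control, and the Bupropion calls by region were 62 in place of 61. Leaving out 1 replicate at a time gave 8 to 9, 4 to 4, 9 to 9, 2 to 3 and 6 to 6.

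Counts that moved by over 1.5 times were few. For FT the number called higher was 1 in place of 0 (Tubb4a) with equal weight of regions, library totals or without FT replicate 1. It was also 1 with a pooled reference, which holds Maltodextrin, a group Tubb4a was selected on. Any call of Tubb4a against the pooled reference is therefore no test of that gene. For Bupropion 7 were called with only the groups compared or a pooled reference; 2 and 4 of them were higher, and 5 were lower with only the groups compared. Bupropion had 0 higher and 5 lower without ILC and LConly and in 5 regions. Probiotics had 5 lower against the pooled reference and 7 against Control, with 60 calls by region, 52 of them lower, and 18 higher by region with only the groups compared. Against Control or the pooled reference the samples differ by construction; otherwise the cause was not tested.

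Signs turned for small changes. In Probiotics against Maltodextrin, Tubb2a was 0.031 and Tubb5 0.0097 without dorDG. Tubb2b was 0.0024 with equal weight, 0.018 in 5 regions, 0.052 without dorDG and up to 0.0033 with 1 replicate left out. Tubb3 was -0.14 against the pooled reference, -0.32 against Control, -0.029 in 5 regions and -0.029 without ILC and LConly. Tubb4b was -0.16 pooled, -0.33 against Control, -0.0020 with equal weight, -0.13 in 5 regions, -0.055 without ILC and LConly and down to -0.025 with 1 replicate left out.

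Under Bupropion, Tuba4a was 0.032 with the pooled reference. In 5 regions Tubb3 was -0.12, Tubb4b -0.13 and Tubb5 -0.10, and without ILC and LConly they were -0.065, -0.080 and -0.061. Tubb4a was -0.39 under FT in 5 regions and -0.026 without ILC and LConly, and 0.016 under Desipramine against the pooled reference. For the Probiotics minus Bupropion effect in 5 regions, Tuba1a was 0.066, Tubb3 0.094, Tubb4b 0.0025 and Tubb5 0.057. Without ILC and LConly Tubb3 was 0.036, Tubb4b 0.025 and Tubb5 0.015. Tubb3 was 0.0082 by library totals, 0.00047 without dorDG and -0.050 to 0.0047 with 1 replicate left out.

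The lowest library total was 198260 counts, and all 9 members passed the filter in every region.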
